A study of Mus musculus with 16 samples.

Results

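The interleukin-1 (IL-1) family was followed here through 10 genes in whole mouse lung: the ligands Il1a, Il1b, Il18 and Il33, the antagonist Il1rn, the binding protein Il18bp, and the receptor genes Il1r1, Il1r2, Il1rl1 and Il1rap. The members were taken by name, and each was read by the probe with the highest mean over the 16 arrays. Of these 10 genes, 9 had a named probe, among 20863 genes measured in all. Il1rl1, the receptor for IL-33, had none and was not analysed here.

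The arrays fell into 4 groups of C57BL/6 mice aged 9 to 12 weeks: Bleomycin + LNA-miR-199a-5p (5 arrays), Bleomycin + LNA-control (5 arrays), PBS + LNA-miR-199a-5p (3 arrays) and PBS + LNA-control (3 arrays). Bleomycin, a drug that injures the lung and leads to fibrosis, was given into the trachea at 1 unit/kg, and PBS is its vehicle. All 4 groups also received a locked nucleic acid (LNA) oligonucleotide into the trachea, at 5 mg/kg for the inhibitor of the microRNA miR-199a-5p, on days 4 and 2 before and day 4 after the bleomycin or PBS, so no group was free of an instilled oligonucleotide. Total RNA of the lung was labelled with Cy3 and hybridised to 1-colour Agilent arrays. Neither the sex of the mice nor the time at which lungs were taken is given. The labels do not say that replicates are separate animals, so the p-values measure the spread between these samples, which may be technical.

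IL-1 alpha and IL-1 beta bind the same receptor, IL-1R1, which signals once the accessory protein encoded by Il1rap joins it, and MyD88 and IRAK kinases carry the signal to NF-kappaB. The system holds natural brakes: the antagonist encoded by Il1rn occupies IL-1R1 without signalling, IL-1R2 is a decoy receptor with no signalling domain, and the Il18bp protein captures IL-18. IL-33 is stored in the nuclei of lung epithelial cells and is released when cells are damaged. IL-1 beta and IL-18 are made as precursors that caspase-1 cleaves in inflammasomes, so transcript levels do not give the amount of active cytokine.

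Lungs given bleomycin with the control LNA had higher Il1rn, Il18bp, Il33 and Il1r1 than the PBS lungs with the same LNA, by 1.34-fold to 1.65-fold, and lower Il1b. The Il1r1 call was lost without any 1 of the PBS + LNA-control arrays. The Il1b call was lost without replicate 1 of that group (limma adjusted p = 0.0822), but the median over its spots on all arrays passed (limma adjusted p = 0.0113). In bleomycin lungs, Il1rn, Il18bp and Il1r1 were lower with the miR-199a-5p inhibitor than with the control LNA, by 1.24-fold to 1.36-fold. These 3 of 9 members compare with 24.9% of all genes called there, a share not far from theirs. Only Il1r1 of the 3 kept its call without 2 arrays high in thymus transcripts, and none did with fat, heart and squamous levels as covariates. Calls over all genes also fell in these settings, from 5188 to 2356 without the 2 arrays and to 159 with the covariates. Il33 was also 1.61-fold higher in PBS lungs with the inhibitor than in PBS lungs with the control LNA. That call was lost in 14 of 29 alternative settings. Among them was a block for the replicate number, shared by all 4 groups (limma adjusted p = 0.125). Il1a and Il18 did not pass the test in any comparison.

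The inhibitor's target is shown first because it defines the treated groups. The mature microRNA is encoded at 2 places, on chr9:21496537-21496559 (minus strand, gene Mir199a-1) and chr1:162217844-162217866 (plus strand, gene Mir199a-2) in RefSeq's GRCm38.p6, with the same 23 bases. Capitals mark the seed, bases 2 to 8 from the 5′ end, which pairs with target transcripts.
mmu-miR-199a-5p: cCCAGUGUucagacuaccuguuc

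RefSeq promoter windows, each running 250 bases before to 50 after a start site, were found for all 10 genes, 15 windows in all on GRCm38.p6. Windows of Il1rn and Il33 are shown because both genes rose after bleomycin with the control LNA, and Il1rn holds motif matches where Il33 holds none. The NF-kappaB motif, written as GGG, any 2 bases and then TTTCC and searched on both strands, stood in 2 of the members' windows, both of Il1rn and overlapping each other so that they share 1 match, and in 1.63% of all 32851 promoters. The AP-1 motif TGANTCA, which overlaps none of these matches, stood in 1 window of Il1rn and 1 of Il1a, and in 7.81% of all promoters. Capitals mark the matches: an AP-1 match that begins 141 bases before the first start of Il1rn, and an NF-kappaB match that begins 51 bases before a downstream start. The Il33 window held no match. A match is a description of letters and not of binding, and no match says only that these letters are not in this window.
Il1rn, chr2:24336610-24336909, plus strand: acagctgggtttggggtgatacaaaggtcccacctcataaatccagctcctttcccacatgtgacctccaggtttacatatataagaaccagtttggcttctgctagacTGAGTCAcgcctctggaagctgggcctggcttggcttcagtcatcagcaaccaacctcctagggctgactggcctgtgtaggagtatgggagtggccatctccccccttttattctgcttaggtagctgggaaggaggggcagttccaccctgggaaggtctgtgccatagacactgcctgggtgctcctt
Il1rn, chr2:24345121-24345420, plus strand: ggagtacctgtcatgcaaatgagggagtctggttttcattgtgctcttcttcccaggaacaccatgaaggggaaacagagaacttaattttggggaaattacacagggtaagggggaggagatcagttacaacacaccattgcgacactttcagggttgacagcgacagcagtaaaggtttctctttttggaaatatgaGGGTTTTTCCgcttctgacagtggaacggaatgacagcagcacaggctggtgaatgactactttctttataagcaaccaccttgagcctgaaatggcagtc
Il33, chr19:29924863-29925162, plus strand: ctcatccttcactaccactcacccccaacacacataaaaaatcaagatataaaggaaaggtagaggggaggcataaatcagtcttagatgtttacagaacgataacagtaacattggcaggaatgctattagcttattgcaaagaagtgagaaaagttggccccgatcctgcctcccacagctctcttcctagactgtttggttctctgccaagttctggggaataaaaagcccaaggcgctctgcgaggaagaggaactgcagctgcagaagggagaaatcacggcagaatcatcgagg

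All values below are log2 intensities. The lung label held on every array: Sftpc, which encodes surfactant protein C, lay between 18.11 and 18.32. Some arrays stood apart in transcripts of neighbouring tissue. Rag1, a gene of developing lymphocytes, read 10.03 and 10.88 on Bleomycin + LNA-control replicates 1 and 4, and 5.43 to 6.10 on the other 14 arrays. Krt13, a keratin of squamous epithelium, read 5.59 on PBS + LNA-miR-199a-5p replicate 3 and 11.38 on PBS + LNA-control replicate 3, and 12.99 to 15.73 elsewhere. Ucp1, a brown fat gene, was at 5.56 and 5.57 on those same 2 PBS arrays and at least 7.65 on the rest. Counts of members called are therefore also given without these arrays.

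Calls rest on limma's moderated test with p-values adjusted by Benjamini-Hochberg over all 20863 genes, with 0.05 as the limit, and standard errors (SE) come from that model. Bleomycin against PBS with the control LNA changed 5 of the 9 members, 4 higher and 1 lower, where 17.5% of all genes were called, 9.6% higher and 7.9% lower. The median of the 9 log2 fold changes was 0.42, against 0.00 for all genes, and 6 of the 9 had groups that did not overlap, against 25.3% of all genes. Without the 2 arrays high in Rag1, without both PBS replicates numbered 3, or with fat, heart and squamous levels as covariates, 3 members were higher and 1 lower in each case. Over all genes those settings called 2258, 2268 and 1959, against 3651. Bleomycin against PBS with the inhibitor called 0 of 9 in limma, while 5 had an unadjusted p under 0.05 and 13.4% of all genes were called, 7.31% higher and 6.04% lower. Of the 9, 1 (Il1rap, by less than the second decimal) had groups that did not overlap there, against 20.7% of all genes. The count stayed at 0 without the arrays high in Rag1 and without both PBS replicates numbered 3, and was 1 with the tissue covariates. Over all genes those settings called 2314, 791 and 242, against 2786. Only the interaction tests whether the 2 bleomycin comparisons differ.

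**Figure D1:**
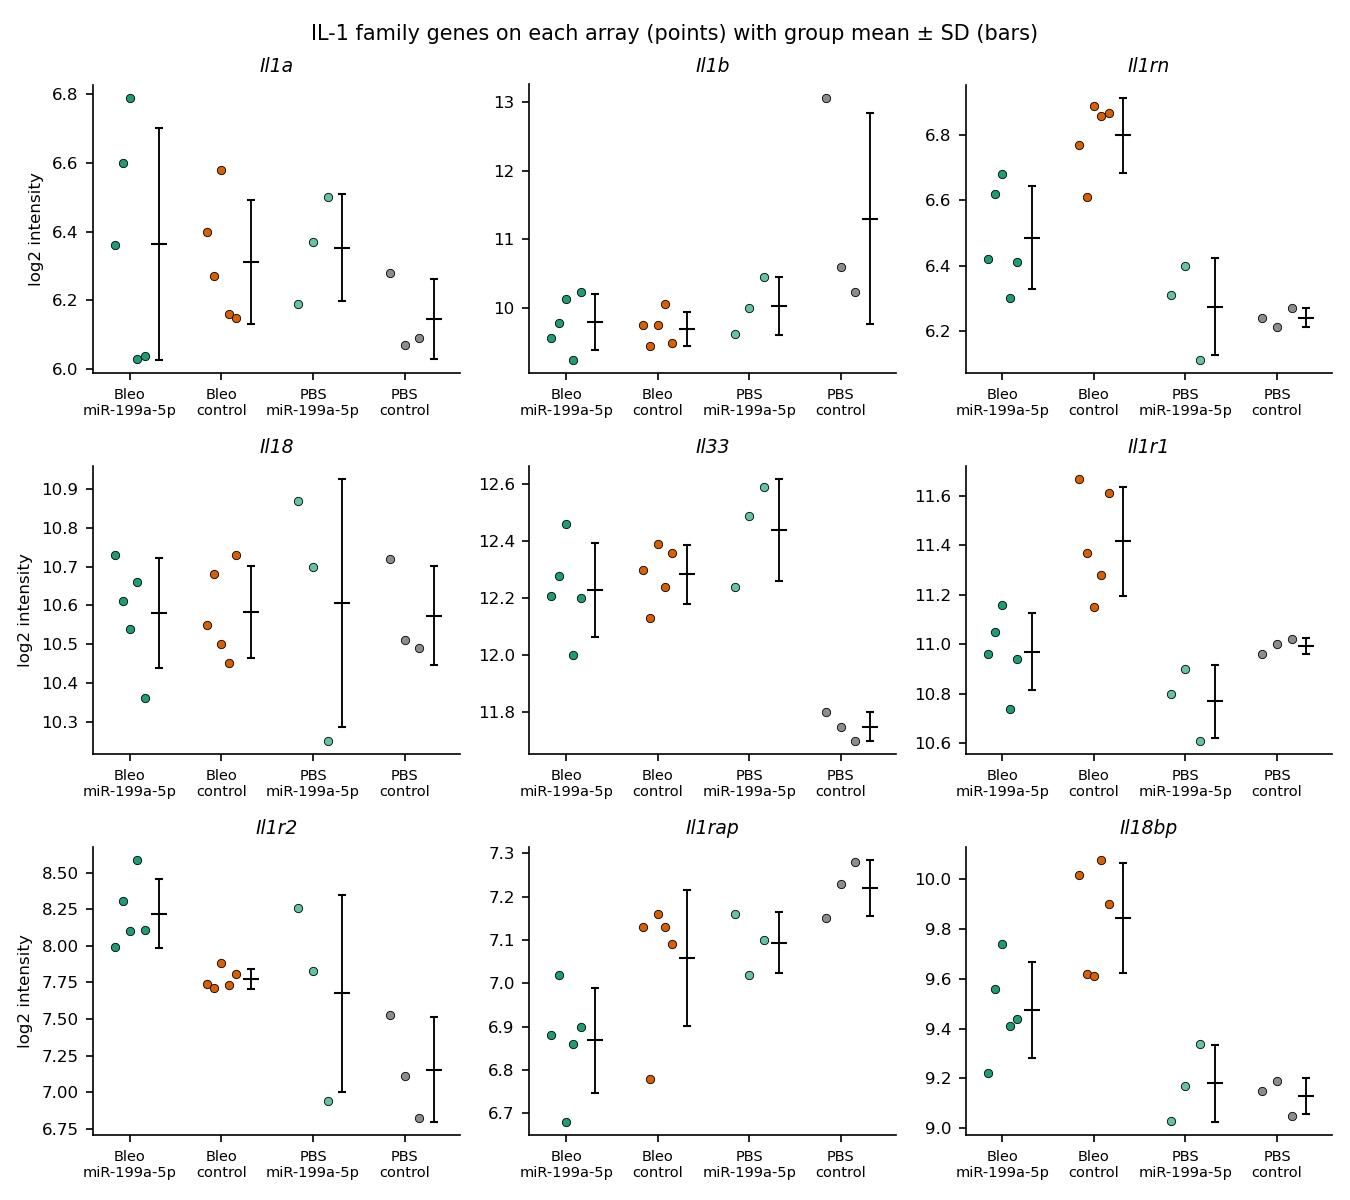
Log2 intensity of the 9 measured members on each array, with points for arrays and bars for the group mean ± SD, in the 4 groups. Il33 sits at 11.70 to 11.80 on the 3 PBS + LNA-control arrays and at 12.00 or above on the other 13, while Il18 overlaps among all groups.

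Among the ligands, Il1a encodes a form of IL-1 that is active without caspase-1 cleavage. It was among the dimmer genes, with a mean of 6.31 that was above 31.5% of all genes. Il1a read 6.36, 6.60, 6.79, 6.03 and 6.04 in Bleomycin + LNA-miR-199a-5p lungs, 6.40, 6.27, 6.58, 6.16 and 6.15 in Bleomycin + LNA-control lungs, 6.19, 6.37 and 6.50 in PBS + LNA-miR-199a-5p lungs, and 6.28, 6.07 and 6.09 in PBS + LNA-control lungs. The groups overlapped. Bleomycin against PBS gave 0.16 ± 0.16 (SE) with the control LNA, with a 95% interval of -0.17 to 0.50 and a limma adjusted p of 0.551. The inhibitor against the control LNA in bleomycin lungs gave 0.05 ± 0.14 (limma adjusted p = 0.826).

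Il1b, the main secreted form of IL-1, was lower after bleomycin with the control LNA, but the size depended on 1 spot of 1 array. The arrays carry 10 spots for Il1b that share 1 accession, and the spot with the highest mean read 9.57, 9.78, 10.14, 9.25 and 10.24 in Bleomycin + LNA-miR-199a-5p lungs, 9.76, 9.45, 9.75, 10.06 and 9.49 in Bleomycin + LNA-control lungs, 9.62, 10.01 and 10.46 in PBS + LNA-miR-199a-5p lungs, and 13.06, 10.60 and 10.24 in PBS + LNA-control lungs. On the array that read 13.06, the 9 other spots lay between 10.39 and 10.68. The gap between the top spot and the median of the others was 2.56 on that array and at most 0.23 on the other 15. The 9 other spots followed each other with Pearson r of 0.953 to 0.988 over the 16 arrays, while the top spot's r with them was 0.722 to 0.801.

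The highest-mean spot gave -1.60 ± 0.45 (SE), or 3.02-fold lower in bleomycin lungs with the control LNA, with a limma adjusted p of 0.0202. The median over the spots, a setting added after this reading was seen, gave a smaller difference of -0.84 ± 0.21, or 1.79-fold lower, with a 95% interval of -1.29 to -0.39 and a limma adjusted p of 0.0113. The mean over the spots gave -0.91 ± 0.22 (limma adjusted p = 0.0085). Without that PBS array the highest-mean spot gave -0.71 ± 0.26 and the call was lost (limma adjusted p = 0.0822). It was also lost with the replicate number as a block (limma adjusted p = 0.0695) and with these 2 groups fitted alone (limma adjusted p = 0.0524).

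The median of the 9 other spots was 9.53, 9.77, 10.05, 9.10 and 10.11 in Bleomycin + LNA-miR-199a-5p lungs, 9.62, 9.22, 9.61, 9.91 and 9.43 in Bleomycin + LNA-control lungs, 9.50, 9.89 and 10.26 in PBS + LNA-miR-199a-5p lungs, and 10.50, 10.49 and 10.14 in PBS + LNA-control lungs. All 5 Bleomycin + LNA-control arrays were thus below all 3 PBS + LNA-control arrays on these spots, with means of 9.56 ± 0.26 (SD, n = 5) and 10.38 ± 0.20 (SD, n = 3). In bleomycin lungs the median over the spots differed between inhibitor and control LNA by 0.15 ± 0.18 (limma adjusted p = 0.58), and in PBS lungs by -0.51 ± 0.24 (limma adjusted p = 0.649). The interaction did not pass on that scale (0.66 ± 0.30, limma adjusted p = 0.203).

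**Figure D2:**
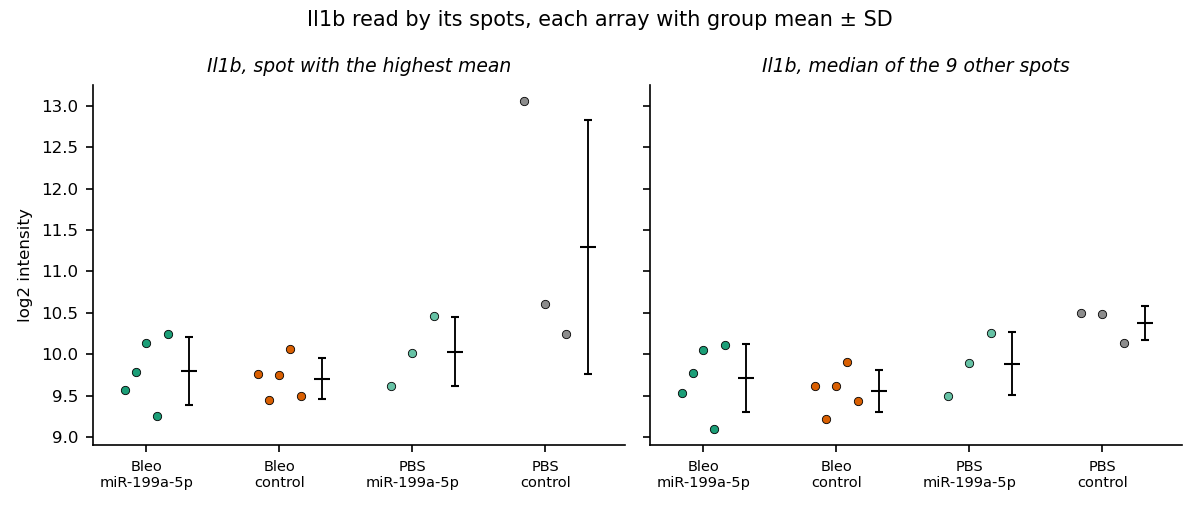
Log2 intensity of Il1b on each array, read by the spot with the highest mean and by the median of its 9 other spots, with group mean ± SD. The PBS + LNA-control array at 13.06 on the highest-mean spot reads 10.50 on the others, and the Bleomycin + LNA-control arrays lie below the PBS + LNA-control arrays on both scales.

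Neutrophils are rich in Il1b transcript, and most of their markers were lower in the same comparison. Of 12 measured neutrophil genes, 8 were lower and 1 higher in bleomycin lungs with the control LNA than in PBS lungs with it, where 7.9% of all genes were lower. Their summed level was 16.67 to 16.90 in Bleomycin + LNA-control lungs and 17.28 to 17.40 in PBS + LNA-control lungs. S100a8, a defining neutrophil gene, read 12.40 to 12.61 in Bleomycin + LNA-control lungs and 13.67 to 13.85 in PBS + LNA-control lungs. In bleomycin lungs 7 of the 12 were higher and 1 lower with the inhibitor than with the control LNA, where 13.4% of all genes were higher and 11.4% lower. Summed levels were 17.00 to 17.23 in Bleomycin + LNA-miR-199a-5p lungs and 16.67 to 16.90 in Bleomycin + LNA-control lungs. Il1b, at 0.15 on the median over the spots, did not pass there. In these bulk samples fewer cells of a type and less RNA per cell cannot be told apart, and the part of neutrophils in the Il1b difference was not tested.

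Il18, which acts with IL-12 to induce interferon gamma, did not set any group apart. It read 10.73, 10.61, 10.54, 10.66 and 10.36 in Bleomycin + LNA-miR-199a-5p lungs, 10.55, 10.68, 10.50, 10.45 and 10.73 in Bleomycin + LNA-control lungs, 10.87, 10.70 and 10.25 in PBS + LNA-miR-199a-5p lungs, and 10.72, 10.51 and 10.49 in PBS + LNA-control lungs. The group means lay between 10.57 and 10.61, and every pair of groups overlapped. The 95% interval for bleomycin against PBS with the control LNA was -0.25 to 0.27, and for inhibitor against control LNA in bleomycin lungs -0.23 to 0.22.

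Il33 encodes a nuclear alarmin that activates type 2 innate lymphoid cells and mast cells, and it was the brightest of the 9 on its own probe, above 86.8% of all genes. It read 12.21, 12.28, 12.46, 12.00 and 12.20 in Bleomycin + LNA-miR-199a-5p lungs, 12.30, 12.13, 12.39, 12.24 and 12.36 in Bleomycin + LNA-control lungs, 12.24, 12.49 and 12.59 in PBS + LNA-miR-199a-5p lungs, and 11.80, 11.75 and 11.70 in PBS + LNA-control lungs. The PBS + LNA-control arrays formed a low group that no other array reached, with a gap of 0.19 to the nearest of the other 13, while the other 3 groups overlapped one another.

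With the control LNA, Il33 rose by 0.53 ± 0.10 (SE), or 1.45-fold, in bleomycin lungs against PBS lungs, with a 95% interval of 0.32 to 0.75 (limma adjusted p = 0.00139). With the inhibitor the same comparison gave -0.21 ± 0.10 (limma adjusted p = 0.166). The interaction of -0.75 ± 0.14 passed the test (95% interval -1.05 to -0.44, limma adjusted p = 0.00598), and it was the only member to do so, where 7.01% of all genes were called (3.07% higher and 3.94% lower). Without replicate 3 of both PBS groups the interaction was -0.64 and missed the threshold (limma adjusted p = 0.0531), and with the fat, heart and squamous covariates it was -0.59 (limma adjusted p = 0.222). It kept its call without the arrays high in Rag1.

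In PBS lungs Il33 was 1.61-fold higher with the inhibitor than with the control LNA, a log2 difference of 0.69 ± 0.11 (SE) with a 95% interval of 0.45 to 0.93 (limma adjusted p = 0.0368). Only 10 genes were called in that comparison, 0.0479% of all (0.0336% higher and 0.0144% lower), and Il33 was the only member. Groups did not overlap for 2 members, Il33 and Il1r1, against 18.1% of all genes. The call was lost with the replicate number as a block (limma adjusted p = 0.125) and with the 6 PBS arrays fitted alone (limma adjusted p = 0.229). It was also lost without the arrays high in Rag1, without replicate 3 of both PBS groups and with the tissue covariates. Leaving out 1 array at a time kept the difference between 0.61 and 0.79, with limma adjusted p of 0.0226 to 0.241. Both comparisons and the interaction share the 3 PBS + LNA-control arrays. In bleomycin lungs the inhibitor against the control LNA gave -0.06 ± 0.09, with a 95% interval of -0.24 to 0.13 (limma adjusted p = 0.665). In the order of group means, PBS + LNA-miR-199a-5p was highest at 12.44 ± 0.18 (SD, n = 3), then Bleomycin + LNA-control at 12.29 ± 0.10 (SD, n = 5), Bleomycin + LNA-miR-199a-5p at 12.23 ± 0.16 (SD, n = 5) and PBS + LNA-control at 11.75 ± 0.05 (SD, n = 3). The first 3 overlapped.

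Among the brakes, Il1rn encodes the IL-1 receptor antagonist. It was also among the dimmer genes, with a mean of 6.5 that was above 33.2% of all genes. Il1rn read 6.42, 6.62, 6.68, 6.30 and 6.41 in Bleomycin + LNA-miR-199a-5p lungs, 6.77, 6.61, 6.89, 6.86 and 6.87 in Bleomycin + LNA-control lungs, 6.31, 6.40 and 6.11 in PBS + LNA-miR-199a-5p lungs, and 6.24, 6.21 and 6.27 in PBS + LNA-control lungs. Every Bleomycin + LNA-control array lay above every PBS array. With the control LNA, Il1rn rose by 0.56 ± 0.10 (SE), or 1.48-fold, after bleomycin (95% interval 0.36 to 0.77, limma adjusted p = 0.000698). With the inhibitor the difference was 0.21 ± 0.10 (limma adjusted p = 0.15), and the interaction of -0.35 ± 0.14 did not pass (limma adjusted p = 0.136).

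In bleomycin lungs, 3 of the 9 members were called between inhibitor and control LNA, all lower, where 24.9% of all genes were called, 13.4% of all being higher and 11.4% lower. Only Il1r2 had groups that did not overlap, against 13.8% of all genes. The members' median was -0.06 against 0.01 for all genes, and 5 of the 9 had an unadjusted p under 0.05. Without the 2 arrays high in Rag1 the count was 1, where 2356 of all 20863 genes were called. With the fat, heart and squamous covariates it was 0, where 159 of all genes were called. Summed fat levels were 16.79 to 16.98 in Bleomycin + LNA-miR-199a-5p lungs and 15.78 to 16.32 in Bleomycin + LNA-control lungs. That fit therefore cannot tell the inhibitor from tissue content. Without both PBS replicates numbered 3, 3 members were lower and 1, Il1r2, was higher. Il1rn was 1.24-fold lower with the inhibitor, at -0.31 ± 0.08 (SE, limma adjusted p = 0.0123), although the replicates of the 2 groups overlapped between 6.61 and 6.68. The call was lost without the arrays high in Rag1 (-0.30, limma adjusted p = 0.0713), with the RNA integrity number as a covariate (-0.29, limma adjusted p = 0.0548) and with the tissue covariates (-0.19, limma adjusted p = 0.681).

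Il18bp, which encodes the secreted protein that neutralises IL-18, had a larger rise. It read 9.22, 9.56, 9.74, 9.41 and 9.44 in Bleomycin + LNA-miR-199a-5p lungs, 10.02, 9.62, 9.61, 10.08 and 9.90 in Bleomycin + LNA-control lungs, 9.03, 9.17 and 9.34 in PBS + LNA-miR-199a-5p lungs, and 9.15, 9.19 and 9.05 in PBS + LNA-control lungs. All 5 Bleomycin + LNA-control arrays were above all 6 PBS arrays. The difference from PBS with the control LNA was 0.72 ± 0.13 (SE), or 1.65-fold (95% interval 0.45 to 0.99, limma adjusted p = 0.000813), and with the inhibitor 0.29 ± 0.13 (limma adjusted p = 0.13).

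In bleomycin lungs Il18bp was 1.3-fold lower with the inhibitor, at -0.38 ± 0.11 (SE, limma adjusted p = 0.02), with overlapping groups. The 2 highest Bleomycin + LNA-control readings, 10.02 and 10.08, were on the arrays high in Rag1. Without replicate 1 of that group the value was -0.33 (limma adjusted p = 0.0559), without replicate 4 it was -0.32 (limma adjusted p = 0.06), and without both it was -0.24 (limma adjusted p = 0.195). The interaction for Il18bp was -0.43 ± 0.18 (limma adjusted p = 0.166). Il18, the cytokine that this protein binds, did not pass any of these comparisons.

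Il1r2, the decoy receptor, read 7.99, 8.31, 8.10, 8.59 and 8.11 in Bleomycin + LNA-miR-199a-5p lungs, 7.74, 7.71, 7.88, 7.73 and 7.81 in Bleomycin + LNA-control lungs, 8.26, 7.83 and 6.94 in PBS + LNA-miR-199a-5p lungs, and 7.53, 7.11 and 6.82 in PBS + LNA-control lungs. The bleomycin groups did not overlap each other, and neither did the groups with the control LNA, but the spread in PBS lungs was wide. Bleomycin against PBS with the control LNA gave 0.62 ± 0.22 (SE, limma adjusted p = 0.0649), and the inhibitor against the control LNA in bleomycin lungs gave 0.45 ± 0.19 (limma adjusted p = 0.103). Fitting only the 2 groups compared, each passed: the first at a limma adjusted p of 0.00946 and the second at 0.0107. The second also passed without replicate 3 of both PBS groups (limma adjusted p = 0.0138). Leaving out PBS + LNA-miR-199a-5p replicate 3 also let them pass, at limma adjusted p of 0.00937 and 0.0216, and without that array the inhibitor's difference in PBS lungs was 0.90 (limma adjusted p = 0.0485).

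The lowest Il1r2 arrays were also low in squamous epithelium transcripts and in fat transcripts. Summed fat levels were 14.88 on PBS + LNA-miR-199a-5p replicate 3 and 15.01 on PBS + LNA-control replicate 3. The other 14 arrays lay between 15.66 and 16.98 on the fat list, so the 2 tissues cannot be told apart on these arrays. The lowest readings, 6.94 and 6.82, came from PBS + LNA-miR-199a-5p replicate 3 and PBS + LNA-control replicate 3, which were also lowest in the summed squamous list, at 9.68 and 13.55, where the other 14 arrays lay between 15.03 and 17.52. Within both PBS groups Il1r2 and the squamous list ran in the same order. Arrays at 16.94, 16.16 and 9.68 in PBS + LNA-miR-199a-5p read 8.26, 7.83 and 6.94 for Il1r2. Those at 15.74, 15.03 and 13.55 in PBS + LNA-control read 7.53, 7.11 and 6.82. In Bleomycin + LNA-miR-199a-5p the array at 17.52 had the highest Il1r2, 8.59, and that at 16.84 the lowest, 7.99. Within Bleomycin + LNA-control the order was mixed: arrays at 16.34 and 16.50 on the squamous list read 7.71 and 7.88 for Il1r2, and those at 15.18, 15.31 and 15.36 read 7.73, 7.74 and 7.81. With the fat, heart and squamous levels as covariates the bleomycin difference with the control LNA was 0.30, and with the inhibitor 0.11, against 0.54 without them. That last value ran between 0.17 and 0.83 with 1 array left out, and passed without PBS + LNA-miR-199a-5p replicate 1 (limma adjusted p = 0.0349). The part of these tissues in the Il1r2 readings was not tested beyond that fit.

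**Figure D3:**
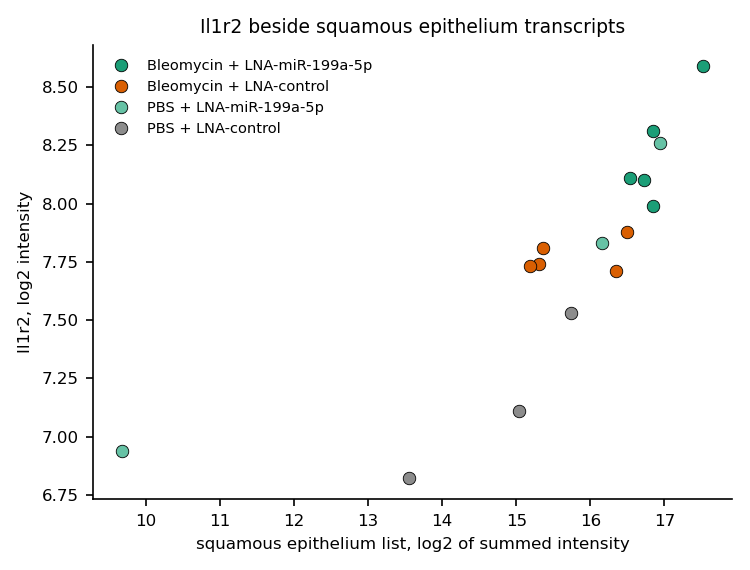
Il1r2 log2 intensity (vertical axis) beside the log2 of the summed intensity of the squamous epithelium list (horizontal axis), 1 point an array, by group. The arrays at 9.68 and 13.55 on the horizontal axis have the lowest Il1r2, 6.94 and 6.82.

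Il1r1, the signalling receptor, read 10.96, 11.05, 11.16, 10.74 and 10.94 in Bleomycin + LNA-miR-199a-5p lungs, 11.67, 11.37, 11.15, 11.28 and 11.61 in Bleomycin + LNA-control lungs, 10.80, 10.90 and 10.61 in PBS + LNA-miR-199a-5p lungs, and 10.96, 11.00 and 11.02 in PBS + LNA-control lungs. The Bleomycin + LNA-control arrays were the high group, all above every PBS array, with 1 of them inside the range of the inhibitor group. With the control LNA, Il1r1 rose by 0.42 ± 0.12 (SE), or 1.34-fold, after bleomycin (95% interval 0.18 to 0.67, limma adjusted p = 0.0182). That call was lost without any 1 of the PBS + LNA-control arrays, at 0.41 to 0.44 with limma adjusted p of 0.057 to 0.0665, without the arrays high in Rag1 (0.39, limma adjusted p = 0.0636) and with the tissue covariates (0.25, limma adjusted p = 0.306).

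In bleomycin lungs Il1r1 was 1.36-fold lower with the inhibitor, at -0.45 ± 0.10 (SE, 95% interval -0.66 to -0.23, limma adjusted p = 0.00457). Of the 3 members called there, this one alone stayed called without the arrays high in Rag1. With the tissue covariates it was -0.16 (limma adjusted p = 0.78). Bleomycin against PBS with the inhibitor gave 0.20 ± 0.12 (limma adjusted p = 0.265), and the interaction was -0.22 ± 0.17 (limma adjusted p = 0.458).

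Il1rap, the accessory chain that the receptors for IL-1 and IL-33 share, read 6.88, 7.02, 6.68, 6.86 and 6.90 in Bleomycin + LNA-miR-199a-5p lungs, 7.13, 6.78, 7.16, 7.13 and 7.09 in Bleomycin + LNA-control lungs, 7.16, 7.02 and 7.10 in PBS + LNA-miR-199a-5p lungs, and 7.15, 7.23 and 7.28 in PBS + LNA-control lungs. Most differences were small and bleomycin lungs with the inhibitor read lowest on this probe. Their difference from bleomycin lungs with the control LNA was -0.19 ± 0.08 (SE, limma adjusted p = 0.0942). Without Bleomycin + LNA-control replicate 2, the one low array of its group, it was -0.26 and passed (limma adjusted p = 0.0117). A second Il1rap probe, annotated to another transcript, was dimmer, with group means of 5.90, 6.02, 5.86 and 5.96 in the same order of groups. On it PBS + LNA-miR-199a-5p read lowest, and with the control LNA bleomycin lungs were not below PBS lungs.

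**Figure D4:**
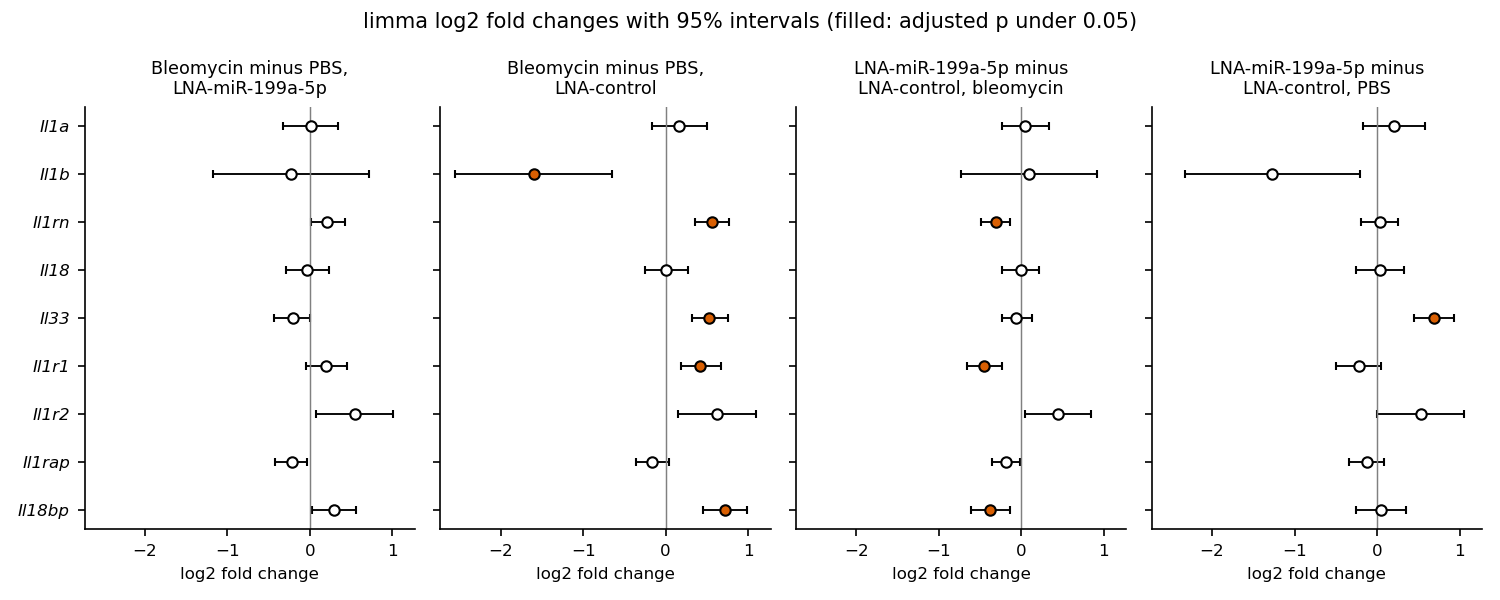
Log2 fold changes of the 9 members with 95% intervals from limma, with filled points for an adjusted p under 0.05, in the comparisons of bleomycin with PBS and of the inhibitor with the control LNA. Il33, Il1rn, Il18bp and Il1r1 lie above 0 after bleomycin with the control LNA, and Il1rn, Il18bp and Il1r1 lie below 0 for the inhibitor in bleomycin lungs.

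Il1rn, Il18bp and Il1r1 differed in the same comparisons and directions as macrophage and monocyte transcripts, and other cell lists changed there too. Over all genes, 9.6% were higher and 7.9% lower in bleomycin than PBS lungs with the control LNA. With the inhibitor in bleomycin lungs, 13.4% of all genes were higher and 11.4% lower. Of 14 measured markers, 12 were higher in bleomycin than PBS lungs with the control LNA, with a median of 1.01, and 12 were lower with the inhibitor than with the control LNA in bleomycin lungs, with a median of -0.97. Their summed level was 16.24 to 16.34 in Bleomycin + LNA-miR-199a-5p lungs, 16.78 to 16.93 in Bleomycin + LNA-control lungs, 16.09 to 16.13 in PBS + LNA-miR-199a-5p lungs and 16.24 to 16.28 in PBS + LNA-control lungs. Cd68, a macrophage lysosomal protein, lay between 7.40 and 7.93 in Bleomycin + LNA-miR-199a-5p lungs and between 8.85 and 9.21 in Bleomycin + LNA-control lungs. Alveolar macrophage markers went both ways, with 4 of 12 higher and 4 lower after bleomycin with the control LNA, and 6 higher and 3 lower with the inhibitor in bleomycin lungs. Endothelial markers went opposite to the macrophage and monocyte list, with 8 of 11 lower after bleomycin with the control LNA and 8 of 11 higher with the inhibitor in bleomycin lungs. Their summed level was 17.35 to 17.56 in Bleomycin + LNA-miR-199a-5p lungs, 16.70 to 17.04 in Bleomycin + LNA-control lungs and 17.36 to 17.38 in PBS + LNA-control lungs. Of 8 heart muscle markers, 5 were lower after bleomycin with the control LNA and 8 were higher with the inhibitor in bleomycin lungs. The part of these cells in the receptor and antagonist differences was not tested.

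Across the 16 arrays, as a description, the genes with the profile most like Il1rn were Tuba1c, a tubulin (Pearson r = 0.938), Aif1, a macrophage protein (r = 0.934), and Cd300lf, a myeloid receptor (r = 0.933). Il1r1 ran closest to the acute-phase gene Serpina3n (r = 0.950), Hif1a (r = 0.948) and Ly86 (r = 0.947). Il18bp ran closest to the interferon-induced gene Oas2 (r = 0.959), the protease inhibitor Timp1 (r = 0.953) and Tuba1c (r = 0.943). Il1r2 ran closest to Tmem54 (r = 0.974), the triglyceride enzyme Dgat2 (r = 0.964) and the muscle calcium channel Cacna1s (r = 0.960). Il33 had looser neighbours, Stbd1 (r = 0.884), Gfer (r = 0.857) and Dnaja1 (r = 0.847). These correlations share the arrays, their group structure and the tissue content above.

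Genes that IL-1 is known to induce were followed as a list of 26. The list was chosen with earlier results of these data known, so its counts are a description. Whether IL-1 caused their differences was not tested. In bleomycin lungs with the control LNA, 10 were higher than in PBS lungs and 0 lower, where 9.6% of all genes were higher and 7.9% lower. Their median was 0.25 against 0.00 for all genes. With the tissue covariates 7 were higher and 0 lower, where 1959 of all genes were called. In bleomycin lungs, 8 were lower and 2 higher with the inhibitor, where 11.4% of all genes were lower and 13.4% higher. Their median was -0.13 against 0.01 for all genes. With the tissue covariates 1 was lower and 1 higher, where 159 of all genes were called. In PBS lungs the inhibitor called 0 of 26 in limma, with 2 at an unadjusted p under 0.05, where 0.0479% of all genes were called. The interaction called 5, all lower, where 3.94% of all genes were lower. That count was 2 without the arrays high in Rag1, 2 with the replicate block, 0 without both PBS replicates numbered 3 and 0 with the tissue covariates. Over all genes the interaction called 525, 947, 513 and 139 in those settings, against 1462.

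Lcn2, an iron-trapping acute-phase protein, rose by 1.99 ± 0.20 (SE) after bleomycin with the control LNA (limma adjusted p = 6.77e-06) and fell by 0.86 ± 0.18 with the inhibitor in bleomycin lungs (limma adjusted p = 0.00242). Socs3, a feedback inhibitor of cytokine signalling, rose by 0.96 ± 0.13 and fell by 0.98 ± 0.12 with the inhibitor (limma adjusted p = 0.000106 and 3.42e-05). Il6 rose by 1.11 ± 0.20 and fell by 0.87 ± 0.18 with the inhibitor (limma adjusted p = 0.0011 and 0.00211). The collagenase gene Mmp13 rose by 0.92 ± 0.16 and fell by 0.84 ± 0.13 with the inhibitor (limma adjusted p = 0.000628 and 0.000407). It was dim, with a mean of 5.93 in PBS + LNA-control lungs, near the 25th percentile of all gene means at 5.73. The interaction passed for each of these 4, at -1.08, -0.95, -1.02 and -0.79 (limma adjusted p of 0.0342, 0.00735, 0.0417 and 0.0404), and all 4 calls were lost without both PBS replicates numbered 3 and with the tissue covariates. Icam1, an adhesion molecule, rose by 0.40 ± 0.10 (limma adjusted p = 0.0115) and fell by 0.59 ± 0.09 with the inhibitor (limma adjusted p = 0.000247). Its interaction did not pass (-0.25 ± 0.14, limma adjusted p = 0.327). In PBS lungs the inhibitor gave -0.34 ± 0.11 for Icam1, without a call (limma adjusted p = 0.513) but with groups that did not overlap. Ptgs2, the inducible cyclooxygenase, differed: bleomycin with the control LNA gave -0.01 ± 0.09 (limma adjusted p = 0.977), and the inhibitor in bleomycin lungs gave -0.78 ± 0.07 (limma adjusted p = 4.21e-06).

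**Figure D5:**
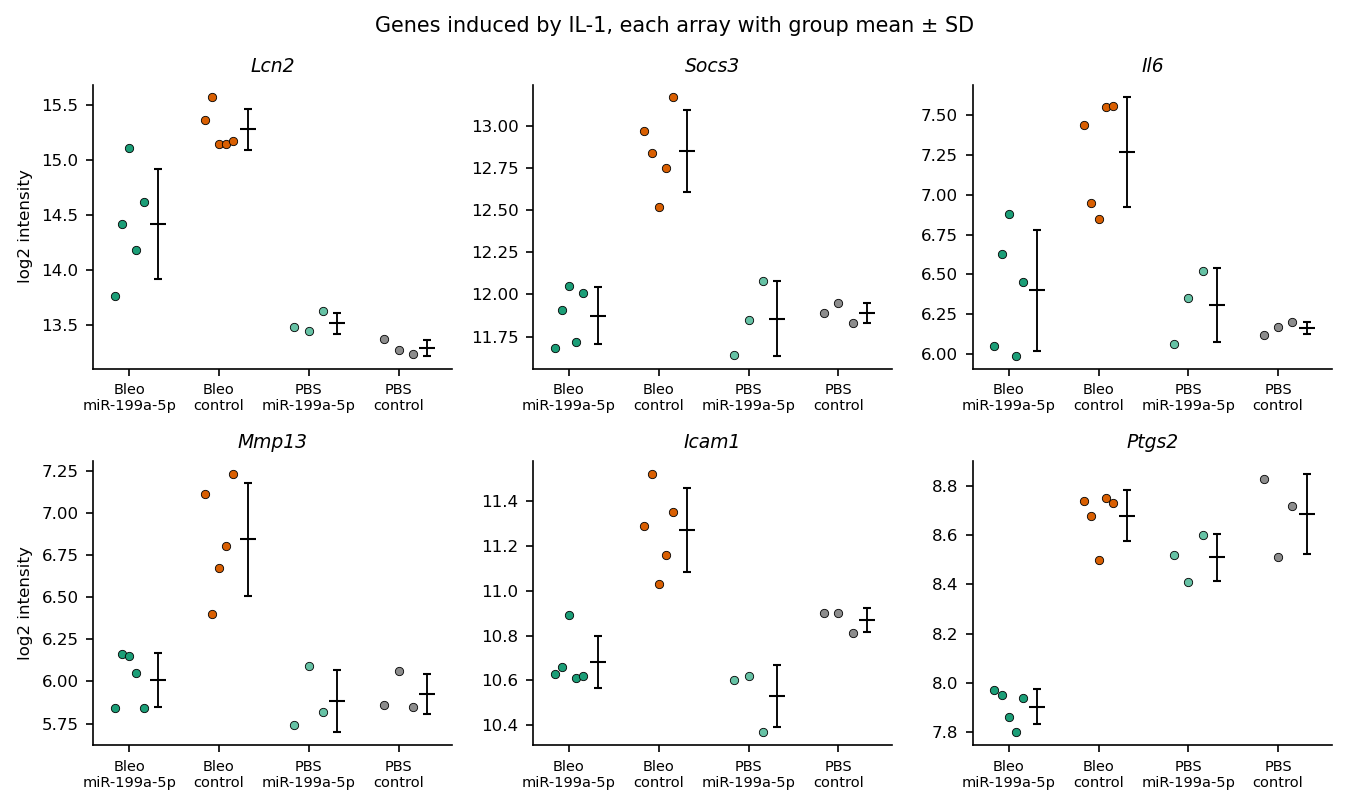
Log2 intensity on each array of genes induced by IL-1, with group mean ± SD in the 4 groups. Lcn2, Socs3, Il6 and Mmp13 have their highest group means in Bleomycin + LNA-control lungs.

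Downstream of the receptor, 22 MyD88 and IRAK pathway genes were measured. With the control LNA 3 were lower after bleomycin and 0 higher, where 7.9% of all genes were lower and 9.6% higher, and the median was near 0. Jun fell by 0.70 ± 0.12 (SE), Nfkbia, an inhibitor of NF-kappaB, fell by 0.35 ± 0.06 and the adaptor gene Tab2 fell by 0.46 ± 0.11 (limma adjusted p = 0.000737, 0.000719 and 0.0064). In bleomycin lungs 5 were higher and 2 lower with the inhibitor, where 13.4% of all genes were higher and 11.4% lower. Among them were Nfkbia at 0.47 ± 0.05 (limma adjusted p = 1.97e-05), Jun at 0.49 ± 0.11 (limma adjusted p = 0.00322) and the kinase gene Ikbkb at 0.43 ± 0.10 (limma adjusted p = 0.0046). Without the arrays high in Rag1 2 were higher and 0 lower, and with the tissue covariates 0 were called. Over all genes those settings called 2356 and 159.

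Of 22 genes of the inflammasome and of cytokine processing, 2 were higher and 3 lower after bleomycin with the control LNA, near the 9.6% higher and 7.9% lower of all genes. The inflammasome adaptor Pycard rose by 0.60 ± 0.12 (SE) and the sensor Nlrp1b by 0.58 ± 0.12 (limma adjusted p = 0.00235 and 0.00205). Mefv, which encodes pyrin, fell by 0.72 ± 0.16, and Ctsg, a neutrophil and mast cell protease, fell by 0.54 ± 0.14 (limma adjusted p = 0.0051 and 0.0151). In bleomycin lungs 5 were higher and 3 lower with the inhibitor, where 24.9% of all genes were called. Nlrp1b fell by 0.57 ± 0.10 (limma adjusted p = 0.000867), while Ctsg was higher by 1.11 ± 0.12 (limma adjusted p = 2.09e-05) and the mast cell protease gene Mcpt4 by 1.21 ± 0.20 (limma adjusted p = 0.000568). With the tissue covariates 0 of these 22 were called in that comparison, where 159 of all genes were called. Neutrophil markers moved the same way as Ctsg, with 7 of 12 higher and 1 lower with the inhibitor in bleomycin lungs. So did mast cell and basophil markers, with 6 of 11 higher and 1 lower. Of all genes 13.4% were higher and 11.4% lower there, and the part of these cells was not tested. Ctsg was also higher with the inhibitor in PBS lungs, by 0.61 ± 0.16, without a call (limma adjusted p = 0.334).

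Genes that respond to IL-33 or IL-18 numbered 17. With the control LNA 5 were higher and 1 lower after bleomycin, where 9.6% of all genes were higher and 7.9% lower. Their median was -0.01, and 2 were higher and 1 lower without the arrays high in Rag1. Retnla, a product of macrophages under type 2 cytokines, rose by 2.23 ± 0.39 (SE), Il17rb, the IL-25 receptor, by 0.84 ± 0.17, and Arg1, an arginase of such macrophages, by 0.85 ± 0.27 (limma adjusted p = 0.000763, 0.00216 and 0.041). Il17rb was dim, with a mean of 5.80 in PBS + LNA-control lungs, near the 25th percentile of all gene means at 5.73. Gata3, a regulator of type 2 lymphocytes, fell by 0.97 ± 0.10 (limma adjusted p = 1.21e-05). In bleomycin lungs 6 were higher and 2 lower with the inhibitor, where 13.4% of all genes were higher and 11.4% lower. Without the arrays high in Rag1 2 were higher and 1 lower, and with the tissue covariates 1 was higher and 0 lower. Over all genes those settings called 2356 and 159. The chemokine gene Ccl24 was higher by 1.61 ± 0.28 and Tbx21 by 0.45 ± 0.10 (limma adjusted p = 0.000818 and 0.004), and Retnla fell by 1.25 ± 0.34 and Il17rb fell by 0.61 ± 0.15 (limma adjusted p = 0.0128 and 0.00658). In PBS lungs limma called 0 of the 17 for the inhibitor, with 1 at an unadjusted p under 0.05. Only 10 of all 20863 genes (0.0479%) were called there, so the 0 does not set these genes apart.

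Of 11 other ligand and receptor genes of the family, 7 were measured. Among them limma called 0 in each of the 5 comparisons, with at most 1 at an unadjusted p under 0.05. Of all genes, 17.5% were called for bleomycin with the control LNA and 13.4% with the inhibitor. The inhibitor called 24.9% in bleomycin lungs and 0.0479% in PBS lungs, and the interaction 7.01%. Il1rl2, Il1rapl2 and Il1f10 were dim, with group means of 5.21 to 5.44, below the 25th percentile of all gene means at 5.73. Il18rap lay at 6.18 to 6.39. At such levels a missing call does not show a lack of change. Sigirr, an inhibitory receptor of the family, was the brightest of those named, with means of 11.00 ± 0.22 in Bleomycin + LNA-miR-199a-5p lungs (SD, n = 5), 10.78 ± 0.12 in Bleomycin + LNA-control lungs (SD, n = 5), 10.78 ± 0.14 in PBS + LNA-miR-199a-5p lungs (SD, n = 3) and 10.91 ± 0.04 in PBS + LNA-control lungs (SD, n = 3).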

How the data were processed

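Whole-lung RNA of 16 mouse samples was measured on 1-colour arrays, and samples were grouped by their titles. The deposited values are log2 intensities that the authors prepared with limma (version not given), per the submitters' processing notes. They were already quantile normalized, judged from the values: at each rank, the arrays differed by at most 0.0974. How background was corrected, which scanner software was used and what was filtered are not given in the sources used here. Of 62976 spots, 31465 had a gene name in the platform annotation, 29036 were matched to RefSeq, and the highest-mean probe was kept for each of 20863 genes.

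Group means were estimated for the 4 groups together in limma 3.58.1 under R 4.3.3, using lmFit and eBayes without a further filter. Tests were two-sided, with Benjamini-Hochberg adjustment over all genes of each of 5 contrasts and a threshold of 0.05. The code was tested on simulated data. Arrays have no count depth, so their number limits the precision. Arrays of a group correlated at 0.989 or above, and no 2 held the same values.

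The members and gene lists were chosen with earlier results of these data known. Besides all members, the text names from each pathway list genes among the 4 smallest p-values for bleomycin with LNA-control and the 3 smallest for the inhibitor in bleomycin lungs, and for members the 3 most correlated genes among those above the median level. Alternatives were the probe rule, filter, scaling, array weights, RNA integrity, tissue covariates, groups fitted alone, a replicate block and arrays left out. Same-numbered PBS samples deviated together (r = 0.411, 0.108 and 0.497), which met the rule used for trying a replicate block. The titles give only replicate numbers and do not say that these pair samples. Squamous levels also fell from replicate 1 to replicate 3 in both PBS groups, so a pairing and tissue content cannot be told apart. In the other comparisons r was between -0.373 and 0.324 and not above 0.1 for every pair.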

Additional observations from a re-analysis of the deposited data

Results flagged for a closer look

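Il1rap on Bleomycin + LNA-control replicate 2 read 6.78, the lowest of its 5 arrays and far from the other 4, which lay between 7.09 and 7.16. A far value was looked for in 18 groups of members, of which chance flags about 1 in 20.

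The response of Il33 to bleomycin differed between the LNAs: the interaction was -0.75 (limma adjusted p = 0.00598), with -0.21 with the inhibitor and 0.53 with the control LNA. The 3 PBS + LNA-control arrays stand on 1 side of that difference, and no explanation was tested.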

How the results depend on the processing

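Of 1276 recomputed values for 45 member results, 1181 kept direction and side of the threshold, 33 lost a call, 14 gained one and 48 changed sign, none of them called on either side. The number of members called for bleomycin with LNA-control was 4 to 6 with 1 array left out and 4 with the replicate block. For bleomycin with the inhibitor it was 0 to 1 with 1 array left out, and 1 with the tissue covariates (Il18bp 0.55, limma adjusted p = 0.0318). For the inhibitor in bleomycin lungs it was 2 to 4 with 1 array left out, 1 without the 2 thymus-rich arrays and 0 with the covariates. In PBS lungs it was 0 to 2 with 1 array left out, and 0 with the replicate block, with the groups fitted alone, without the thymus-rich arrays, without replicate 3 of both PBS groups and with the covariates. The interaction count was 1 with any array left out, 2 with array weights, 0 without replicate 3 of both PBS groups and 0 with the covariates. The replicate block, which gives samples of the same number a shared term in all 4 groups, changed no other count of members. Over all genes, the counts for bleomycin with LNA-control were 3651, 2429 with the block and 6713 with array weights. For bleomycin with the inhibitor they were 2786, 663 with the block, 791 without replicate 3 of both PBS groups and 242 with the covariates. For the inhibitor in bleomycin lungs they were 5188, 2356 without the thymus-rich arrays and 159 with the covariates. The causes were not tested. Sign changes came in values that were not called, though not all were small: the interaction of Il18bp was -0.43 and that of Il1r1 -0.22 before the covariates. With RNA integrity as covariate, Il18 gave -0.01 for bleomycin with LNA-control, 0.06 with the inhibitor, 0.11 for the inhibitor in bleomycin lungs and 0.07 for the interaction, and Il1a gave -0.04 for bleomycin with the inhibitor and -0.01 for the inhibitor in bleomycin lungs, where Il1b gave -0.32. With arrays centred, Il18 gave -0.04 for bleomycin with LNA-control and Il1a -0.04 with the inhibitor. Without replicate 3 of both PBS groups, Il18 gave -0.03 for bleomycin with LNA-control and Il18bp -0.07 for the inhibitor in PBS lungs. With array weights Il18 gave 0.02 for the inhibitor in bleomycin lungs. With the covariates, Il18 gave -0.17 for bleomycin with LNA-control and 0.16 for the inhibitor in bleomycin lungs, Il1b 0.15 for bleomycin with the inhibitor, Il33 0.09 for the inhibitor in bleomycin lungs, Il18bp -0.06 for the inhibitor in PBS lungs, and the interactions were 0.05 for Il1a, 0.01 for Il1r1 and 0.01 for Il18bp. With 1 array left out, Il18 ranged from -0.10 to 0.22 for the inhibitor in PBS lungs, -0.04 to 0.05 for it in bleomycin lungs, -0.03 to 0.08 for bleomycin with LNA-control, -0.21 to 0.10 for it with the inhibitor and -0.22 to 0.09 for the interaction. Il18bp ranged from -0.03 to 0.12 and Il1rn from -0.03 to 0.12 for the inhibitor in PBS lungs, Il1a from -0.06 to 0.13 and Il1b from -0.02 to 0.23 for it in bleomycin lungs, Il1a from -0.10 to 0.09 for bleomycin with the inhibitor, and Il1r2 from -0.45 to 0.21 for the interaction. Il1a, Il1rn, Il1r2 and Il1rap have no value under the filter on dim genes.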
